A study of Mus musculus with 6 samples.

Results

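The protocadherins are the entries of the deposited RNA-seq table whose gene name begins with Pcdh, and 35 of its 23235 entries met that rule. They were sorted by name into 1 alpha entry (Pcdha1) and 22 beta entries of the clustered protocadherins, and 12 non-clustered genes. No entry had a name beginning with Pcdhg, so the gamma cluster was not analysed here. The non-clustered genes were 4 of the delta-1 class (Pcdh1, Pcdh7, Pcdh9 and Pcdh11x), 5 of the delta-2 class (Pcdh8, Pcdh10, Pcdh17, Pcdh18 and Pcdh19) and 3 others (Pcdh12, Pcdh15 and Pcdh20). All 35 were matched to the mouse annotation.

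RNA was sequenced from 3 samples of embryonic stem cells (ESCs) and 3 samples of the same line after retinoic acid, named neuronal cells (NCs) by the study. Both came from the mouse line E14Tg2a at passages 37 to 40. ESCs were grown with leukemia inhibitory factor (LIF), the cytokine that holds them in self-renewal, and NCs were monolayers without LIF given 1 µM retinoic acid (RA) for 48 h. The table gives 1 value per gene and condition, in FPKM, a count of fragments scaled to transcript length and library size, so these values carry no SD and allowed no test across replicates. The test results that the authors deposited beside them were left out by choice, and every difference described here is untested. A single line was used, and in bulk RNA fewer cells that express a gene and less RNA per cell cannot be told apart.

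Protocadherins are the largest group of the cadherin superfamily of calcium-dependent cell adhesion proteins, and most are best known from the nervous system. In the clusters each variable exon has its own promoter, and single neurons switch on different combinations, which lets a neuron tell its own branches from those of other cells. Alpha and gamma variable exons are spliced to constant exons shared by the whole cluster, while each beta gene is a single exon of its own. The non-clustered genes are scattered singly or in small groups over the genome, and delta-1 and delta-2 proteins are told apart by conserved motifs in their cytoplasmic tails.

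The labels were first set against marker genes. Of the 13293 entries at 1 FPKM or more in the higher condition, 12.5% were at least 2-fold higher in NCs and 10.6% at least 2-fold lower. All 6 pluripotency genes listed were at least 2-fold lower in NCs, Pou5f1 among them at 832 FPKM in ESCs against 37.1 in NCs, and all 6 RA response genes were at least 2-fold higher, with the summed level at 10.1 FPKM with LIF and 759 with RA. Of 4 neural progenitor genes, 3 were at least 2-fold higher in NCs (Pax6, 3.64 against 65.2 FPKM, with ESCs first here and in later pairs, Sox1 and Sox3). Of 6 neuron markers, 4 reached 1 FPKM. None of these 4 was 2-fold higher or more in NCs, and 2 were at least 2-fold lower in NCs (Stmn2, 142 against 11.8 FPKM, and Tubb3, 33.4 against 7.54 FPKM). Dcx, a microtubule protein of young neurons, stood at 0.0140 FPKM under LIF and 0.334 FPKM under RA. The NCs therefore carried markers of neural progenitors, and Dcx was the 1 neuron marker of 6 that was higher in them.

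Nearly every protocadherin was higher in NCs, and nearly all stood at a very low level. Of the 35 entries, 34 had a higher FPKM in NCs, against 50.6% of the 19582 entries above 0 in either condition, and Pcdh1 alone was lower, by a ratio of 0.988 that turned to the NC side when FPKM totals were made equal or ratios were centred on the median. Counted at 2-fold or more, or at 0 in ESCs, 29 of the 35 were higher, against 19.7% of all entries, and none was at least 2-fold lower, against 14.7%. Only 3 entries reached 1 FPKM in either condition. These were Pcdha1 and Pcdh1 in both, and Pcdh18 in NCs. With 1 FPKM asked for in the higher condition, 1 of these 3 (Pcdh18) passed 2-fold on the NC side, against 12.5% of 13293 entries, and none was at least 2-fold lower, against 10.6%.

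**Figure D1:**
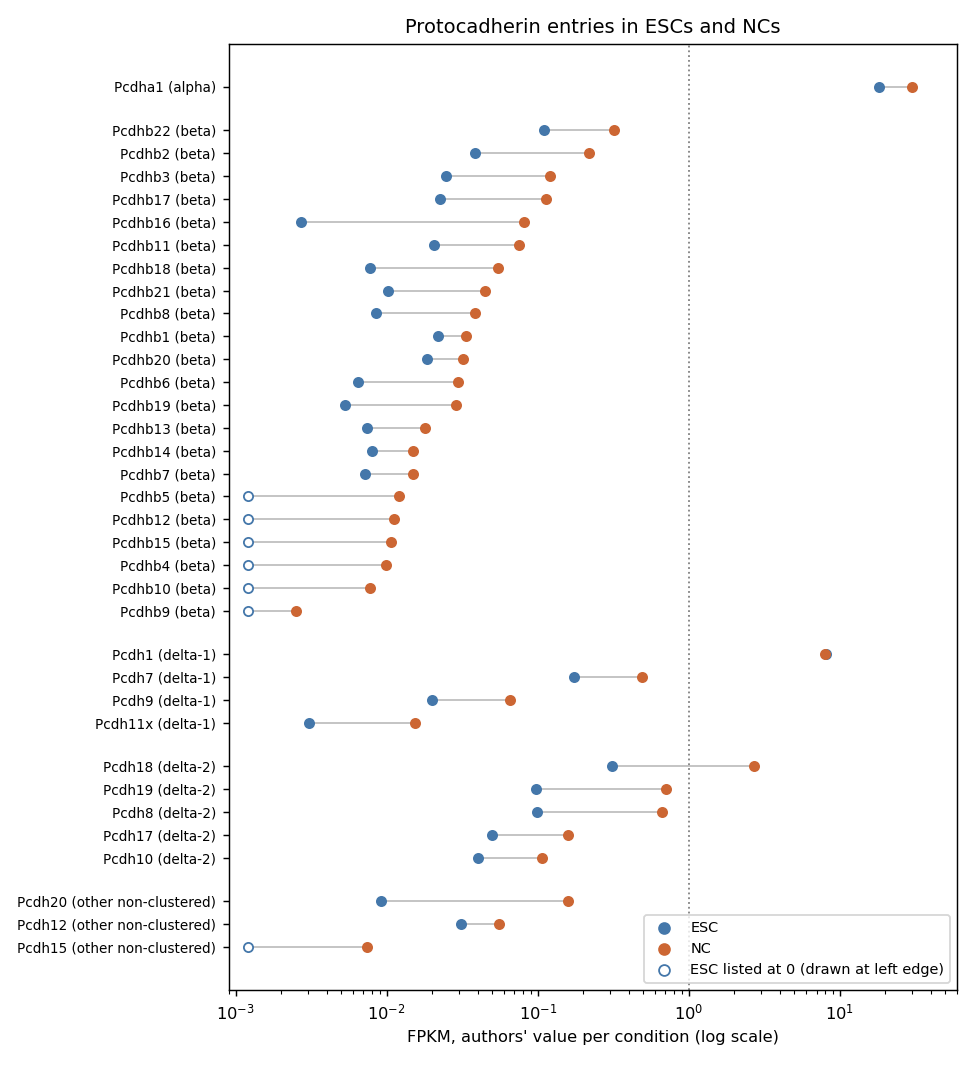
FPKM of each protocadherin in ESCs (blue) and NCs (orange) on a log scale, 1 value per condition, grouped by class and ordered by NC level among the betas; open circles at the left edge mark entries listed at 0 in ESCs, and the dotted line is at 1 FPKM. The orange point lies to the right of the blue one for 34 of the 35 entries, and at Pcdh1, whose direction turns with the scaling, the points nearly coincide.

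The other 32 protocadherins lay under 1 FPKM in both conditions, and the table as a whole leaned the same way at that level. All 32 were higher in NCs, against 55.9% of the 6289 entries above 0 that stayed under 1 FPKM in both. At 2-fold or more, or at 0 in ESCs, the count was 28 of 32, against 35% of those low entries. Other sets of low genes were set beside them too. Among 281 other single-exon coding genes under 1 FPKM, 66.5% were higher in NCs and 43.8% were so by at least 2-fold or from 0. Among 183 olfactory receptor genes, a large family read mainly in the nose and taken by name without an exon filter, the shares were 62.3% and 55.7%. The median log2 ratio of NC to ESC over the 4972 low entries above 0 in both conditions was 0.10, and over the 25 such protocadherins it was 2.13.

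The depth of each library is unknown, so the weight of a low value was read from the steps between the lowest values of genes with 1 transcript. Effective length is the transcript less the 200-base fragment. A single fragment on 1 kb of it was read as 0.0120 to 0.0138 FPKM in ESCs and 0.00714 to 0.0142 FPKM in NCs. The larger NC step lies close to a whole multiple of the smaller. It may therefore stand for more than 1 fragment, and the NC floor for more than 3. Floors and intervals used the larger step of each condition. The smaller NC step would give a lower NC floor, more NC fragments and narrower intervals. A value of 3 fragments, taken as the floor, came to 0.0138 FPKM in ESCs against 0.0142 in NCs on 3 kb of effective length. Each gene was given the floor of its own length. Each fold is given with an exact (Clopper-Pearson) 95% interval from these estimated fragments, which covers counting error only and not the spread between replicates. That interval lay above 1 for 19 of the 28 protocadherins above 0 in both conditions. It was computed for protocadherins only, so no share over all entries stands beside this count or later ones of its kind.

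**Figure D2:**
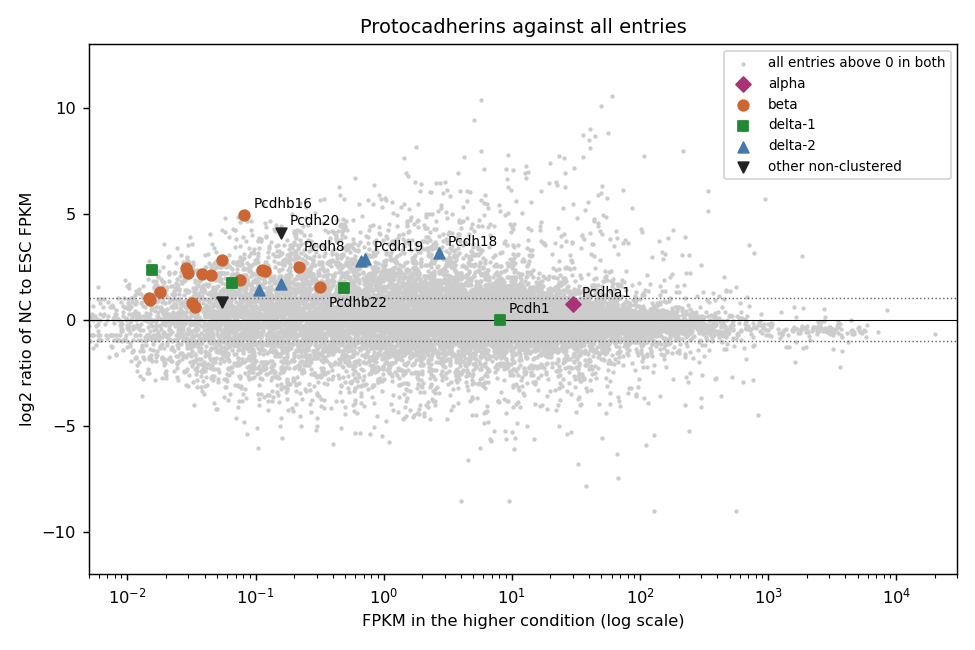
The log2 ratio of NC to ESC FPKM against the FPKM in the higher condition (log scale) for entries above 0 in both conditions, with protocadherins coloured by class and all other entries in grey; dotted lines mark 2-fold, and entries under 0.005 FPKM are outside the axes. Of the 28 protocadherins drawn, 27 lie above 0 on the log2 scale, and 25 of the 28 lie to the left of 1 FPKM.

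The alpha cluster was read through a single entry. Pcdha1 stood at 18.1 FPKM with LIF and 29.9 with RA, the highest protocadherin in both, above 79.1% of all entries in ESCs and 86.8% in NCs. It was 1.65-fold higher in NCs (counting interval 1.60 to 1.71), short of 2-fold, which it passed when FPKM totals were made equal. On GRCm38 the annotation puts Pcdha1 at chromosome 18, 36930184 to 37187661, on the forward strand, which is the whole 257 kb of the alpha cluster. The annotation holds 14 alpha genes, and all 14 end within 10 bases of each other on the shared constant exons. Of the 50-base words in Pcdha1 transcripts, 60.8% also occur in other genes, of which there are 18. The Pcdha1 value can therefore not be told apart from reads of the other alpha genes, and which variable exon was in use was not tested.

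The beta entries all had a higher listed FPKM in NCs, 22 of 22 against 55.9% of low entries, from levels far under that of Pcdha1. The counting interval, not computed for other entries, lay above 1 for 9 of the 22, and 6 of the 22 were at or under the floor in both conditions. Their median was 0.00756 FPKM under LIF and 0.0308 FPKM under RA. Summed over the cluster they came to 0.321 FPKM in ESCs against 1.29 in NCs, a ratio of 4.02, which the steps put at about 109 to 123 fragments in ESCs and 403 to 807 in NCs. The Pcdha1 entry was 56.4 times this sum in ESCs and 23.2 times in NCs. The 22 genes lie on the forward strand of chromosome 18 from 37264938 to 37524479 (GRCm38), each with a single exon in its longest transcript.

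The highest beta entry was Pcdhb22, the last gene of the cluster, with 0.110 FPKM with LIF and 0.318 with RA. It was 2.89-fold higher in NCs (counting interval 2.1 to 4.09), and rested on about 51 to 59 fragments in ESCs. Pcdhb2 followed in NCs, with 0.0387 FPKM under LIF and 0.219 FPKM under RA, a 5.65-fold difference (2.61 to 15.6). Together these 2 genes held 46.4% of the summed beta FPKM in ESCs and 41.6% in NCs, and without them the remaining sum was still 4.38-fold higher in NCs.

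Next in NCs came Pcdhb3 and Pcdhb17. Pcdhb3 stood at 0.0248 FPKM in ESCs against 0.120 in NCs, 4.83-fold higher (2.11 to 15.2), and Pcdhb17 at 0.0226 and 0.113 FPKM, 5.0-fold higher (2.26 to 13.8). Pcdhb11 was at 0.0207 FPKM with LIF and 0.0752 with RA, 3.64-fold higher (1.49 to 11.4). For all 3 the ESC value came to 6 to 8 fragments, so the folds are loose while their intervals stay above 1.

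Pcdhb16 had the largest ratio among the betas, from 0.00271 FPKM in ESCs to 0.0816 FPKM in NCs. The ESC value was about 1 fragment and the NC value 29 to 58, and the 30.1-fold ratio had an interval from 4.96 to 1221. Against an ESC value raised to the floor the ratio was 9.92. Pcdhb16, Pcdhb17 and Pcdhb18 are neighbours towards the end of the cluster. Pcdhb18 stood at 0.00777 FPKM under LIF and 0.0549 FPKM under RA, a 7.07-fold ratio (1.92 to 34.5).

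The other 15 beta genes gave little weight each. Pcdhb21 and Pcdhb19 were 4.36-fold and 5.46-fold higher in NCs, from about 3 fragments in ESCs, with the same interval of 1.34 to 26.1. For Pcdhb1, Pcdhb6, Pcdhb7, Pcdhb8, Pcdhb13, Pcdhb14 and Pcdhb20 the interval included 1, and their ratios ran from 1.53 (Pcdhb1) to 4.55 (Pcdhb6). The last 6, Pcdhb4, Pcdhb5, Pcdhb9, Pcdhb10, Pcdhb12 and Pcdhb15, had a listed value of 0 under LIF and 0.00250 to 0.0121 FPKM under RA. Those RA values were at or under the floor set with the larger NC step, and came to about 1 to 6 fragments over both steps. No fold is given for these 6. With the larger NC step no difference was resolved for these 13 genes. Intervals at the smaller step were not computed, so a difference is not excluded.

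**Figure D3:**
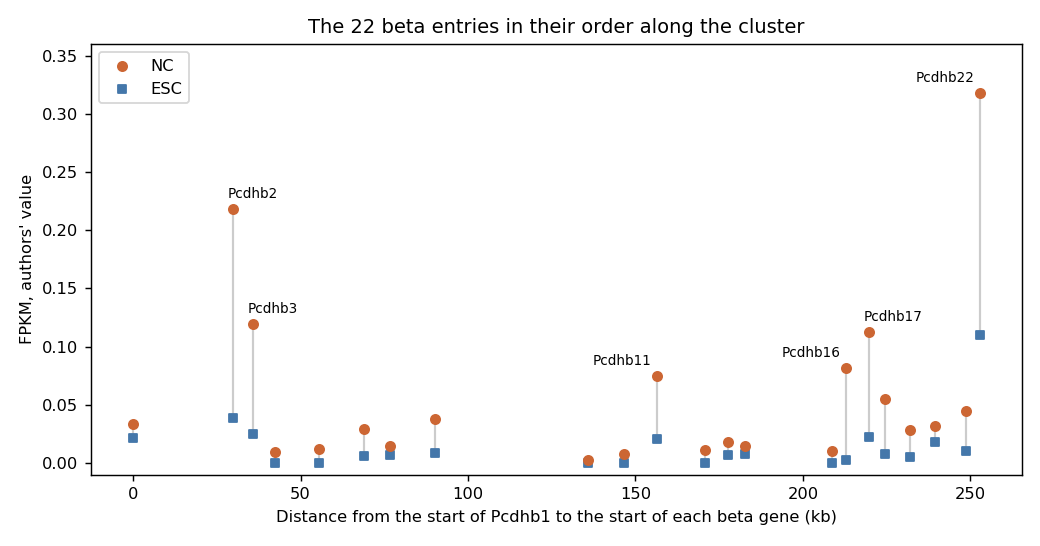
FPKM of the 22 beta genes in ESCs (blue squares) and NCs (orange circles) against the distance in kb from the start of Pcdhb1 to the start of each gene, with a grey line joining the pair of values of a gene. The highest NC values, Pcdhb22 and Pcdhb2, lie towards opposite ends of the cluster, and every orange circle lies above its blue square.

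The order of the betas was much alike in both conditions. The rank correlation of ESC and NC FPKM over the 22 genes was 0.86, over values that share transcript lengths and 1 alignment. With the order along the cluster it was 0.19 in NCs, and with transcript length 0.42. Beta genes also share sequence with each other. Of the 50-base words of Pcdhb12, 64.2% occur in other genes, most in the antisense gene model Gm37446 that overlaps it, against 11.3% for Pcdhb21, 9.52% for Pcdhb11, 8.58% for Pcdhb22 and none for Pcdhb1. Whether reads were counted by strand is not given in the sources used here. Reads of Pcdhb12 and of its antisense model can therefore not be told apart. Gm37446 was also the gene that shared most with Pcdhb11. The models of Pcdhb21 and Pcdhb22 overlap on the same strand and each shares most with the other, so reads of the overlap cannot be told apart. Most of the sequence of the leading betas is still their own.

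Genes around the clusters were mostly expressed at higher levels than the protocadherins, so the counts that follow compare unlike levels. Of the 35 other entries above 0 within 1 Mb of the 3 clusters, 10 were higher and 25 lower in NCs, against 50.6% of all entries higher. Of the 27 that reached 1 FPKM, none was at least 2-fold higher, against 12.5% of entries at that level, and 2 were at least 2-fold lower, against 10.6%. These were Gnpda1 (45.4 against 16.4 FPKM) and Spry4 (15.0 against 0.308 FPKM), an inhibitor of receptor tyrosine kinase signalling. Between the beta and gamma clusters lie Slc25a2, a mitochondrial carrier gene with a single exon, at 0.411 FPKM in ESCs against 0.262 in NCs, and Taf7, a subunit of the general transcription factor TFIID, at 39.3 and 24.7 FPKM. The 4 genes were named after their values were seen.

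The 5 delta-2 genes were each at least 2-fold higher in NCs with a counting interval above 1, beside 19.7% of all entries and 35% of low ones at 2-fold or from 0. Pcdh18 alone of the 5 reached 1 FPKM. With a pseudocount of 0.1 FPKM the log2 ratios of Pcdh17 and Pcdh10 were 0.79 and 0.56, under 2-fold, and with a pseudocount of 1 FPKM Pcdh18 alone stayed past it. Their sum was 0.596 FPKM with LIF and 4.34 with RA, a ratio of 7.28, with a median log2 ratio of 2.75. Several delta-2 proteins bind the WAVE complex, which drives branched actin, through a motif in their tails. Pcdh18, which binds the reelin adaptor Dab1, led the class. It stood at 0.311 FPKM under LIF and 2.70 FPKM under RA, 8.70-fold higher (7.14 to 10.7), with about 112 to 129 fragments behind the ESC value. It held 62.3% of the summed delta-2 FPKM in NCs. Pcdh18 lies on chromosome 3 from 49743296 to 49757325, on the reverse strand.

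Pcdh19, the X-linked gene of an epilepsy that mainly affects females, had 0.0967 FPKM in ESCs against 0.709 in NCs, 7.33-fold higher (5.69 to 9.50). Pcdh8, whose frog counterpart is the paraxial protocadherin of somite formation, had 0.0990 and 0.665 FPKM, 6.72-fold higher (4.59 to 10.2). Pcdh19 and Pcdh8 lay side by side in level in both conditions, and their intervals of the fold overlap each other and that of Pcdh18. Of Pcdh8's 50-base words, 8.30% occur in an antisense gene model that overlaps it, Gm9748. Of 5 paraxial mesoderm genes, Meox1 was higher in NCs (0.253 against 5.43 FPKM). The other 4 were lower, Mesp2 at 1.61 against 1.05 FPKM, T at 0.628 against 0.299, Tbx6 at 0.888 against 0.808 and Mesp1 at 0.133 against 0.110. The summed level of the 5 was 3.51 FPKM with LIF and 7.69 with RA, and Meox1 was the member that raised it. The part of such cells in the Pcdh8 value was not tested.

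Pcdh17 and Pcdh10, both known for axon growth and synapses in the forebrain, were lower in level. Pcdh17 had 0.0494 FPKM under LIF and 0.158 FPKM under RA, 3.19-fold higher (2.24 to 4.72), and Pcdh10 had 0.0404 and 0.107 FPKM, 2.64-fold higher (1.58 to 4.33). Their intervals lie below those of Pcdh18 and Pcdh19. The delta-2 order of level in NCs was Pcdh18, Pcdh19, Pcdh8, Pcdh17 and Pcdh10.

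The promoters of the 5 delta-2 genes share a CCAAT box, the short element bound by the factor NF-Y, and the window around it is shown for each. The windows come from RefSeq on GRCm38.p6 and are written 5′ to 3′ on the strand of the gene. The capitals ATTGG are CCAAT read on the opposite strand. The motif was searched on both strands in the 250 bases before and 50 bases after the gene start, and it was chosen after the sequences were seen.
Pcdh18, chr3:49757331-49757360, reverse strand: ggaagctcgctgATTGGctggaagcgattc
Pcdh19, chrX:133689041-133689070, reverse strand: ggctgcgcgctgATTGGctagtgcctggcg
Pcdh8, chr14:79771363-79771392, reverse strand: ggctaagcgaccATTGGctggccccttcca
Pcdh17, chr14:84443493-84443522, forward strand: ctccccacgccgATTGGctggcagagaatc
Pcdh10, chr3:45378336-45378365, forward strand: tgctcctcggcgATTGGttggcagaatgag

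In these windows the motif began 32 bases before the gene start in Pcdh18, 65 in Pcdh19, 68 in Pcdh8, 58 in Pcdh17 and 50 in Pcdh10. Promoter windows were at hand for 9 of the 12 non-clustered genes. CCAAT was found in 8 of the 9, including Pcdh9, Pcdh20 and Pcdh15, and in 37.4% of all 32851 promoters. The window without it was that of Pcdh7. All 9 genes had a higher FPKM in NCs, so the motif does not separate them by direction. AGGTCA, the core letters bound by retinoic acid receptors, was in none of the 9 and in 16.3% of all promoters, and its direct repeat with 5 bases between the copies was in none of the 9 and in 0.00913% of all. TATAAA was in 2 of the 9 (Pcdh8 and Pcdh15) and in 13.6% of all. The delta-2 windows held from 14 (Pcdh8) to 26 (Pcdh17) CG pairs, against a median of 7 and a 95th percentile of 37 over all promoters. The trait was not particular to delta-2, as Pcdh9 held 18 to 19 and Pcdh7 held 11. Pcdh15 held 8 and Pcdh20 held 4. A motif here is a match of letters, and none of these data measured binding.

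The delta-1 class was split between 1 gene at nearly equal levels and 3 low genes that were higher in NCs. Pcdh1, an adhesion protein of epithelia such as the airway lining, stood at 8.09 FPKM in ESCs against 8.0 in NCs, with a counting interval of the ratio from 0.939 to 1.04. It lies on chromosome 18 from 38185914 to 38212053, outside the clusters, and with Pcdha1 it made up 95.8% of the summed protocadherin FPKM in ESCs and 85.5% in NCs. Pcdh7 (NF-protocadherin), known from ectoderm and axon outgrowth in frogs, had 0.174 FPKM with LIF and 0.491 with RA, 2.83-fold higher (2.27 to 3.57). Of its 50-base words, 20.4% occur in 1 other gene model, 4932441J04Rik, which overlaps its start on the opposite strand.

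Pcdh9, expressed in developing cortex, stood at 0.0200 FPKM under LIF and 0.0659 FPKM under RA, 3.29-fold higher (1.53 to 7.98). The X-linked Pcdh11x had 0.00305 FPKM in ESCs, about 2 fragments, and 0.0155 FPKM in NCs, a 5.08-fold ratio (1.10 to 48.4). Without Pcdh1 the delta-1 sum was 0.197 FPKM in ESCs against 0.573 in NCs, a ratio of 2.91, against 8.29 and 8.57 FPKM with it.

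Of the other non-clustered genes, Pcdh20, a gene of the developing nervous system, stood at 0.00916 FPKM with LIF and 0.157 with RA. The ratio was 17.2 (6.26 to 96.2), from about 3 to 4 fragments in ESCs to between 56 and 111 in NCs. Pcdh12, the protocadherin of vascular endothelium and trophoblast, had 0.0312 and 0.0550 FPKM, with an interval of the fold from 0.848 to 4.02. Beside it, of 5 endothelial markers 2 reached 1 FPKM. Both were at least 2-fold lower in NCs, against 10.6% of entries at that level. These were Pecam1 (24.7 against 2.79 FPKM) and Tek, which was within 2-fold when FPKM totals were made equal. The other 3 were under 1 FPKM and higher in NCs, Kdr at 0.339 and 0.697 FPKM, Tie1 at 0.712 and 0.730, and Cdh5 at 0.291 and 0.297. The summed level, most of it Pecam1 in ESCs, was 29.4 FPKM under LIF and 6.11 FPKM under RA. Its fall is mainly that of Pecam1 alone. The part of endothelial cells in the Pcdh12 value was not tested. Pcdh15, a part of the tip links of inner ear hair cells, was at 0 under LIF and 0.00743 FPKM under RA. The NC value, about 5 to 9 fragments, was 1.60 times the ESC floor of 3 fragments. That ratio has no counting interval and is not a lower limit of the fold.

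Clustered and non-clustered genes leaned the same way, from different levels. All 23 clustered entries and 11 of the 12 non-clustered ones were higher in NCs, and 19 of 23 and 10 of 12 were so by at least 2-fold or from 0 in ESCs, against 19.7% of all entries. Entries at or under the floor in both conditions were then left out, and other ESC values under the floor were raised to it. By this rule 11 of 17 clustered and 9 of 12 non-clustered entries were at least 2-fold higher. The share over all entries was not computed for this rule. The median log2 ratio was 2.13 over the 17 clustered entries above 0 in both conditions and 1.72 over the 11 non-clustered ones, against -0.01 over all 18191 such entries. The order of these medians turned with the entries admitted. Over the 3 entries that reached 1 FPKM the clustered minus non-clustered difference was -0.83, and over the 28 above 0 in both conditions it was 0.41. With 0.1 FPKM asked for it was 0.060, so no order of the 2 kinds is given. Among entries under 1 FPKM in both conditions the ratio of summed FPKM was 4.02 for the betas and 4.65 for the 10 non-clustered genes. The rank correlation of ESC and NC FPKM over the 12 non-clustered genes was 0.92.

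The regulators known to act on clustered protocadherin promoters were abundant in both conditions. CTCF and the cohesin ring hold enhancers and variable-exon promoters together, and DNA methylation and Smchd1 keep promoters silent. The list held 17 names, with 1 gene under both its older and newer symbol (Wapal and Wapl). With that gene as Wapal, 16 were entries of the table and all 16 reached 1 FPKM. None passed 2-fold on the NC side, against 12.5% of entries at that level, and 2 were at least 2-fold lower, against 10.6%. The median log2 ratio of the 16 was -0.06, beside -0.05 over the 11717 entries at 1 FPKM or more in both. Ctcf stood at 44.3 FPKM in ESCs against 42.8 in NCs, the cohesin subunit Rad21 at 105 and 114 FPKM, and Smchd1 at 21.7 and 21.98 FPKM. The 2 lower genes were Dnmt3b, the de novo DNA methyltransferase (105 against 22.1 FPKM, 4.76-fold lower in NCs), and Rest, the repressor of neuronal genes (32.0 against 11.5 FPKM, 2.79-fold lower). The maintenance methyltransferase Dnmt1 was at 80.2 and 62.7 FPKM.

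A list of protocadherin binding partners and signalling genes was present as well, and not every gene on it is a partner bound by a protocadherin tail. All 18 listed genes reached 1 FPKM, with a median log2 ratio of 0.12. Fyn, a Src family kinase, alone passed 2-fold on the NC side (9.74 against 20.9 FPKM), against 12.5% of entries at that level. Ptk2b alone passed 2-fold on the ESC side, against 10.6%, and the other 16 lay within 2-fold. Ptk2b encodes PYK2, a focal adhesion kinase that alpha and gamma proteins inhibit, and it stood at 5.77 FPKM with LIF and 0.702 with RA, 8.23-fold lower. Its relative Ptk2 (FAK) was at 23.0 and 26.4 FPKM, and the WAVE complex genes Nckap1, Cyfip1, Brk1, Abi1 and Wasf1 all lay within 2-fold.

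Other cadherins were set beside the protocadherins. Of all entries at 1 FPKM or more in the higher condition, 12.5% were at least 2-fold higher in NCs and 10.6% at least 2-fold lower. Of 9 entries from a list of large atypical cadherins and their regulator Fjx1, 6 reached 1 FPKM, with 1 at least 2-fold higher (Dchs1, 0.231 against 2.43 FPKM) and 1 at least 2-fold lower in NCs (Celsr3, 1.90 against 0.564 FPKM). Dchs1 is the ligand of Fat4 in planar polarity, and Fat4 itself had 0.0161 FPKM under LIF and 0.154 FPKM under RA. Of 7 classic cadherins, 5 reached 1 FPKM. Cdh2 (N-cadherin, 2.28 against 35.5 FPKM), Cdh6 (0.284 against 9.35 FPKM) and Cdh11 (0.733 against 2.37 FPKM) were at least 2-fold higher in NCs. Cdh1 (E-cadherin, 124 against 38.0 FPKM) and Cdh3 (30.4 against 7.92 FPKM) were at least 2-fold lower. All 35 protocadherins summed to 27.3 FPKM in ESCs against 44.3 in NCs. Of 2 genes once named as protocadherins, Cdhr1 (formerly Pcdh21), of photoreceptors, stood at 3.09 FPKM in ESCs and 0.119 in NCs, and Cdhr2 (formerly Pcdh24), of the intestinal brush border, was at 0.124 and 0.180 FPKM.

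**Figure D4:**
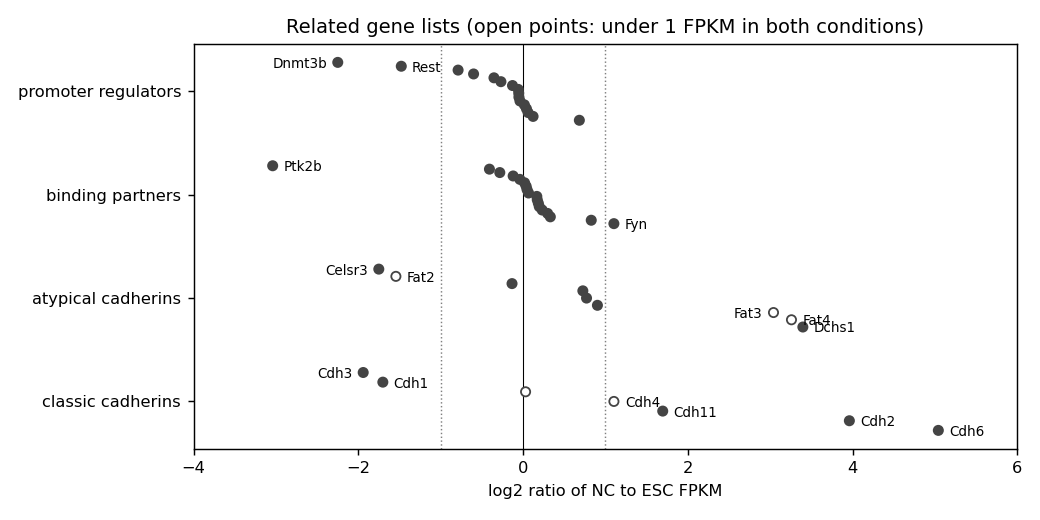
The log2 ratio of NC to ESC FPKM of each gene in 4 lists, with filled points for genes that reached 1 FPKM in either condition and open points for the others; dotted lines mark 2-fold. The list labelled binding partners also holds signalling genes. It and the promoter regulators lie within 2-fold except Dnmt3b, Rest, Ptk2b and Fyn, while classic cadherins lie on both sides.

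Markers of other cell types that RA cultures can hold were as follows beside these values. The shares of all entries at 1 FPKM were 12.5% at least 2-fold higher and 10.6% at least 2-fold lower. Of 5 endoderm genes, 4 reached 1 FPKM and 3 were at least 2-fold higher in NCs (Gata6, Foxa2 and Sox17), the sum being 7.16 FPKM with LIF and 18.5 with RA. All 5 fibroblast genes reached 1 FPKM, 3 were at least 2-fold higher in NCs (Col1a2, 3.47 against 23.3 FPKM, Col1a1 and Col3a1) and Thy1 was at least 2-fold lower, the sum being 21.4 and 45.4 FPKM. Their part in the protocadherin values was not tested.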

How the data were processed

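Libraries were made with a TruSeq RNA kit and sequenced on an Illumina HiSeq. The authors aligned reads to mm10 with TopHat2 (version 2.0.8) over Bowtie2 (version 2.1.0), assembled them with Cufflinks (version 2.0.2) and Cuffmerge, and compared conditions with Cuffdiff, whose version and normalization are not given in the sources used here. The deposited values are FPKM, 1 per gene and condition over the 3 replicates. The heading of the NC column reads FPK and was taken as FPKM. The table's fold changes, test statistics, p-values and q-values are the authors' own comparison and were not used.

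Ratios of NC to ESC FPKM were computed without a pseudocount in Python 3.11.15 with numpy 2.4.6, pandas 2.3.3 and scipy 1.17.1. A gene was called at 2-fold or more with at least 1 FPKM in the higher condition, and the same share over all entries was the background. The floor of 3 fragments, the counting intervals, the no-filter counts and the low-level backgrounds were added after seeing the data, with the longest GENCODE M21 transcript and a fragment length of 200 bases. FPKM sums were 770592 in ESCs and 628679 in NCs, with 12343 and 12667 entries at 1 FPKM or more, and the depth per sample is unknown. The computation was tested on simulated data. Named were the entries at 1 FPKM or more and every non-clustered gene, and betas were added by level after their values were seen. The members and lists were chosen with earlier results of these data known. Sequences of chromosome 18 genes were not used here.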

Additional observations from a re-analysis of the deposited data

How the results depend on the processing

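The count of protocadherins at least 2-fold higher in NCs rested on the filter for low values. It was 1 of 3 at 1 FPKM, 3 of 5 at 0.5 FPKM, 11 of 13 at 0.1 FPKM, 22 of 28 with no filter above 0 in both conditions (22 when centred on the median as well), 29 of 35 above 0 in either, and 20 of 29 with the floor of 3 fragments. The share of all entries was 12.5% at 1 FPKM and 19.7% above 0 in either condition. It was not computed for the other filters, so the rise of the count is not set against the table as a whole. A limit of 1.5-fold gave 2 of 3, and equal FPKM totals, which shift every log2 ratio by 0.29, gave 2. No setting gave an entry at least 2-fold lower. The clustered minus non-clustered median log2 ratio was -0.83 at 1 FPKM, -2.08 at 0.5 FPKM, 0.060 at 0.1 FPKM, 0.41 with no filter, centred or not, and -0.045 with a pseudocount of 1. Over all 35 entries a pseudocount of 0.1 left 6 and a pseudocount of 1 left 1 at 2-fold, and the betas' median log2 ratio was then 0.22 and 0.026. Pcdh1 turned to the NC side with equal totals and with centring (0.03 on the log2 scale), so all 35 were then higher. Equal totals also took Pcdha1, Abl1, Fjx1, Celsr1, Celsr2 and Pdgfrb past 2-fold on the NC side, Cdh4 past 1 FPKM, and Tek back within 2-fold. No paired analysis was possible because the table holds 1 value per condition, and for the same reason leaving out each replicate was not run.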
